A study of Mus musculus with 56 samples.

Results

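Cirbp and Rbm3 are the cold-inducible RNA-binding proteins of the mouse, and their transcripts were followed here through the day in the anterior hypothalamus of mice fed by day or by night. Both genes were taken by their NCBI Gene IDs, 12696 for Cirbp and 19652 for Rbm3, and make up 2 of the 17564 genes in the expression table. RNA sequencing covered 56 female C57BL/6J mice, 9 weeks old and group housed under 12 h of light and 12 h of dark, with no genetic change in any of them. For 7 days, 28 mice had food during the light phase only (daytime-restricted feeding, DRF) and 28 had food during the dark phase only (nighttime-restricted feeding, NRF, the reference regimen). In each regimen 4 mice were taken at each of 7 zeitgeber times, ZT0 (lights on), ZT4, ZT8, ZT12 (lights off), ZT16, ZT20 and ZT24, and the mice of ZT0 and ZT24 were different animals. The tissue was dissected whole, so that a rise in RNA per cell and a rise in the number of cells of a type cannot be told apart.

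Cirbp and Rbm3 are small proteins that bind RNA through an RNA recognition motif followed by a glycine-rich tail. Their synthesis is switched on by a mild fall in temperature and switched off by warming, the opposite of the heat-inducible chaperones, and in mammals their RNA follows the daily rhythm of body temperature. CIRBP binds the Clock mRNA and affects the choice of polyadenylation site in many transcripts, and RBM3 supports translation and the upkeep of synapses in cooled neurons. The anterior hypothalamus holds the preoptic area, which controls body temperature, and the suprachiasmatic nucleus, the central clock.

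In the GRCm38 annotation Cirbp lies on the plus strand of chromosome 10 from 80165985 to 80172786, with 2604 bases of exon over all its transcripts. Rbm3 lies on the minus strand of chromosome X from 8138975 to 8145880, with 4698 bases of exon. The first 452 bases of Rbm3 overlap Rbm3os, an antisense gene that the table does not list. The library protocol does not mark strand, so reads from that stretch cannot be told apart between them. Rbm3 has a processed pseudogene, Rbm3-ps, and reads shared with it could have been split in counting.

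Regulatory sequence is shown for Cirbp, because the mild-cold response element, a short motif known to raise transcription of this gene at lowered temperature, lies upstream of it. The stretch below comes from the RefSeq promoter table (GRCm38.p6), chr10:80167589-80167777, plus strand. It ends where an annotated 5′ untranslated exon begins, and it falls in no exon but in an intron of 1 of the 7 annotated transcripts. Capitals mark the motif, TCCCCGCC, which starts 247 bases before the RefSeq start site.
Cirbp upstream region: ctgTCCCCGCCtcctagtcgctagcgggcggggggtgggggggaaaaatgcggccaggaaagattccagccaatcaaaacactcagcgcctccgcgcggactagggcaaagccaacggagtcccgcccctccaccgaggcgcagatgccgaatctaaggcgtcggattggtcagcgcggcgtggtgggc
On either strand, TCCCCGCC occurs in 5.38% of the 32851 promoter windows of 300 bases in that table. The same window holds CCAAT at 2 places (37.4% of windows hold it) and the GC box GGGCGG at 3 (35.7% of windows). Neither the E-box CACGTG (7.15% of windows) nor the heat shock element GAANNTTC (7.86%) is in it. A second RefSeq start site of Cirbp, with a window from 80167921 to 80168220, has 4 GC boxes and none of the other motifs. These are matches of letters, not sites shown to be used.

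Both transcripts had many reads in every mouse. Normalized library size was 29591266 to 34493344 reads, and each mouse had 1455 to 3549 reads of Cirbp and 1181 to 3595 reads of Rbm3. Values below are CPM (the normalized reads of a gene relative to the total of its library), recovered from the deposited values, and fold changes and tests are on the scale of log2(CPM + 1). The mean level of Cirbp was at percentile 75.7 of the 16009 genes tested and that of Rbm3 at 73.6. Per kilobase of exon, Cirbp was the more abundant, at 28.5 ± 5.41 CPM per kb in DRF and 26.6 ± 7.12 in NRF, against 14.2 ± 3.98 and 13.8 ± 4.03 for Rbm3 (SD, n = 28 mice each, all times). Mice of the same group agreed closely, with a correlation of 0.986 to 0.999 across genes. Libraries 3 and 4 of DRF at ZT16 stood apart in their trend of level with GC content, with slopes of 0.226 and 0.363 log2 units per SD against -0.112 to 0.106 in the other 54, and the main comparisons that use them are also given without them. Leaving them out was decided once the values were known.

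All 8 transcripts that mark the anterior hypothalamus (Avp, Oxt, Vip, Sim1, Six6, Otp, Lhx1 and Nms) were in the table, and together they came to 341 to 795 CPM in NRF and 293 to 784 in DRF. Of them, 1 was called between light and dark in NRF (summed level 499 to 795 CPM in the light and 372 to 586 in the dark). In DRF 1 was called (389 to 759 and 310 to 728). For 1 the light-dark difference depended on the regimen, and 1 differed between the regimens at ZT16. The pituitary markers Gh and Prl together reached at most 0.815 CPM. Markers of blood came to 137 to 368 CPM in NRF and 159 to 1666 in DRF, and those of cortex or striatum to 29.9 to 103 and 22.9 to 158. Of 3 markers each, 2 of astrocytes were called between light and dark in NRF (summed level 360 to 426 CPM in the light and 382 to 434 in the dark) and 1 in DRF (365 to 416 and 334 to 434). For microglia 1 was called in NRF (100 to 117 CPM and 94.5 to 107) and 2 in DRF (92.7 to 131 and 83.4 to 107), and 2 had a light-dark difference that depended on the regimen. Over all 16009 genes, 4276 were called between light and dark in NRF and 545 in DRF, and 1664 for the dependence on the regimen. At ZT16, 2 of 3 neuronal markers differed between the regimens, where 3231 of 16009 genes were called, and 30 without DRF libraries 3 and 4. Over all times the neuronal markers came to 2325 to 3114 CPM in NRF and 2065 to 3003 in DRF. Markers of thalamus came to 33.0 to 245 CPM in NRF and 31.9 to 165 in DRF. Called between light and dark in NRF were also 1 of its 2 markers and 1 of 3 each for endothelium and ependyma. At ZT0, 1 of endothelium differed between the regimens, beside 736 of 16009 genes. At ZT16, so did 1 each of thalamus, astrocytes, oligodendrocytes, microglia and cortex or striatum. The light-dark difference of 1 astrocyte marker also depended on the regimen. The part of these cells and tissues in the results was not tested.

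In NRF, Cirbp was high in the second part of the light phase and low late in the night. Its level in the 4 mice was 69.0, 104, 69.6 and 77.7 CPM at ZT4, 92.0, 88.9, 94.9 and 92.8 at ZT8, and 86.7, 101, 95.5 and 82.6 at ZT12. It was 59.2, 62.4, 62.0 and 64.0 CPM at ZT16, 48.6, 51.0, 48.4 and 53.2 at ZT20, 51.0, 49.5, 55.0 and 51.3 at ZT24, and 46.4, 65.0, 53.1 and 64.6 at ZT0. Every mouse from ZT4 to ZT12 (69.0 CPM or more) was above every mouse of the other times (65.0 or less). The group mean was 1.83 times higher at ZT8 (92.2 ± 2.46 CPM) than at ZT20 (50.3 ± 2.25; SD, n = 4 mice each). Ordered by mean, the groups were ZT8, ZT12, ZT4, ZT16, ZT0, ZT24 and ZT20, and only the step from ZT4 to ZT16 separated neighbours whose ranges did not overlap.

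In DRF the order was different, with the highest levels at ZT0 but not at ZT24, the same clock time. Cirbp was at 114, 90.8, 92.8 and 97.1 CPM at ZT0, at 78.9, 81.1, 70.7 and 65.5 at ZT4, at 90.5, 80.5, 76.6 and 75.5 at ZT8, and at 77.1, 76.3, 70.1 and 62.8 at ZT12. The night brought 53.4, 57.1, 59.7 and 64.8 CPM at ZT16, 75.2, 53.8, 66.4 and 68.0 at ZT20, and 84.5, 68.7, 63.2 and 60.4 at ZT24. The 4 mice of ZT0 lay above all others, and from ZT8 down to ZT16 each group overlapped the next. The highest mean (98.7 ± 10.6 CPM, ZT0) was 1.68 times the lowest (58.7 ± 4.79, ZT16; SD, n = 4 mice each).

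Rbm3 in NRF rose later than Cirbp and stayed high into the night. Its level was 45.7, 77.6, 44.5 and 75.7 CPM at ZT4, 70.4, 67.5, 79.0 and 66.6 at ZT8, and 78.8, 101, 117 and 81.2 at ZT12. It came to 68.1, 84.6, 63.7 and 84.1 CPM at ZT16, 61.2, 67.8, 55.2 and 54.4 at ZT20, 42.1, 39.9, 42.3 and 47.1 at ZT24, and 41.6, 58.1, 46.7 and 55.2 at ZT0. The mice of ZT4 fell into a low pair and a high pair, and no neighbours in the order ZT12, ZT16, ZT8, ZT4, ZT20, ZT0, ZT24 had separate ranges. The mean at ZT12 (94.3 ± 17.9 CPM) was 2.2 times that at ZT24 (42.8 ± 3.01; SD, n = 4 mice each).

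In DRF, Rbm3 was high throughout the light phase and low throughout the night. The 4 mice were at 101, 92.8, 98.8 and 84.0 CPM at ZT0, 84.0, 76.5, 80.1 and 72.7 at ZT4, 90.4, 81.6, 83.1 and 74.5 at ZT8, and 72.5, 65.6, 56.8 and 67.2 at ZT12. They were at 49.2, 51.8, 38.4 and 35.3 CPM at ZT16, 52.6, 41.0, 49.8 and 55.6 at ZT20, and 60.5, 55.9, 48.8 and 47.4 at ZT24. Every mouse of ZT0, ZT4 and ZT8 was above every mouse of the later times. The lowest pair, at ZT16, were the libraries that stood apart in their GC trend. The mean at ZT0 (94.1 ± 7.52 CPM) was 2.15 times that at ZT16 (43.7 ± 8.04; SD, n = 4 mice each). Without that pair ZT20 had the lowest mean (49.7 CPM), and the ratio was 1.89.

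**Figure D1:**
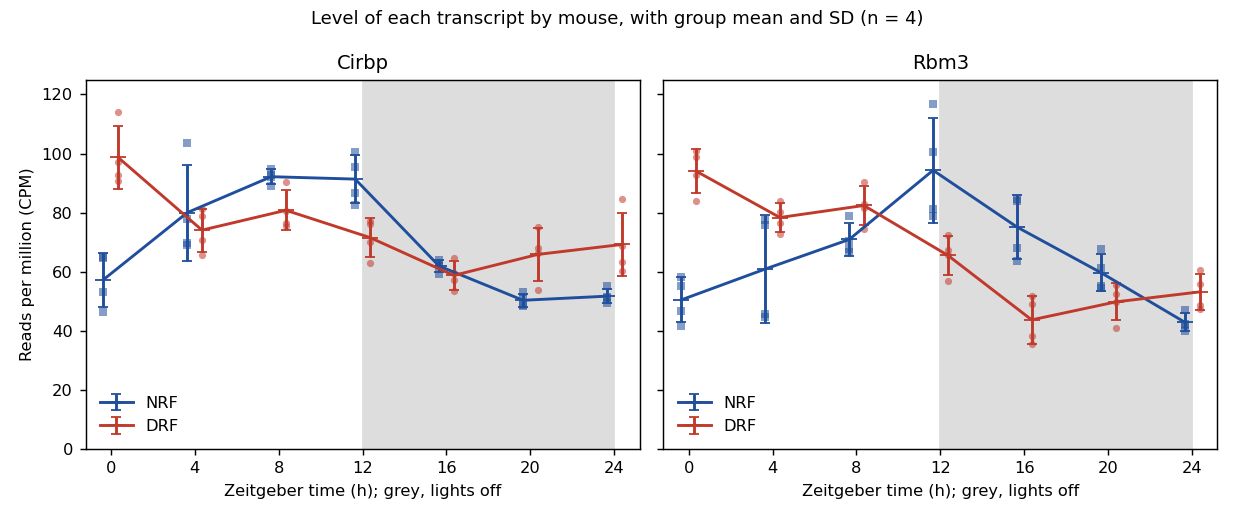
Level of Cirbp (left) and Rbm3 (right) in CPM against zeitgeber time in hours, with points for mice, lines for group means, bars for the SD of 4 mice and grey for lights off. NRF (blue squares) peaks at ZT8 for Cirbp (92.2 CPM) and at ZT12 for Rbm3 (94.3 CPM), whereas DRF (red circles) is highest at ZT0 for both (98.7 and 94.1 CPM).

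Level depended on time of day in each regimen. In limma's test over the 7 time points, the adjusted p-value for Cirbp was 5.28e-10 in NRF and 3.80e-05 in DRF, and for Rbm3 it was 6.09e-07 and 9.38e-08. Changes over time were common in this tissue, with 29.9% of genes called in NRF and 32.7% in DRF. Leaving out the DRF ZT16 libraries 3 and 4 gave 6637 of 16009 genes in NRF and 2423 in DRF. In that and the other alternative fits, 12 in all, both transcripts stayed called in each regimen (limma adjusted p at most 0.01025). Rhythm of 20 to 28 h, by JTK_CYCLE and the Lomb-Scargle periodogram combined, was called for both transcripts in NRF, with adjusted p-values of 1.69e-06 for Cirbp and 2.30e-05 for Rbm3, where 27.7% of transcripts were called. In DRF only 0.813% were called, and Rbm3 was among them with an adjusted p-value of 0.00103 while Cirbp was not, with 0.119. The Rbm3 call in DRF was lost without any 1 of the 4 replicates (adjusted p from 0.0713 to 0.141), without ZT16 (0.0700), without ZT20 (0.0556) and with Lomb-Scargle alone (1), which called no transcript in either regimen (3318 at an unadjusted p under 0.05 in NRF and 218 in DRF). The Rbm3 call was kept without the DRF ZT16 libraries 3 and 4 (0.00857). Cirbp passed in DRF without ZT4 (0.0111).

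A call in one regimen alone does not show a difference, so the 24-h rhythm was compared between the regimens directly. It differed for both transcripts (limma, adjusted p = 2.81e-05 for Cirbp and 1.08e-05 for Rbm3), against 11.2% of genes called. For Cirbp the 24-h cosine had an amplitude of 0.48 (SE 0.05) log2 units in NRF and 0.21 (SE 0.05) in DRF, a difference of -0.28 (95% confidence interval -0.43 to -0.13, adjusted p = 0.00105 over both transcripts by a Wald test). For Rbm3 the amplitude was 0.44 (SE 0.07) in NRF and 0.46 (SE 0.08) in DRF, and the difference of 0.02 had an interval of -0.19 to 0.22. Without the DRF ZT16 libraries 3 and 4, the amplitude in DRF was 0.39 (SE 0.08) for Rbm3 and 0.21 (SE 0.06) for Cirbp, and the rhythm still differed for both (limma adjusted p = 7.88e-05 and 3.94e-05).

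Both fitted peaks came earlier in DRF, where the combined test did not call a rhythm of Cirbp. Without ZT16 the DRF amplitude of Cirbp was 0.15, with a 95% confidence interval of -0.0036 to 0.30. The cosine takes ZT0 and ZT24 as the same phase, but in DRF ZT0 was 1.43 times higher for Cirbp and 1.76 times for Rbm3. The fitted peak of Cirbp was at ZT8.94 (SE 0.41 h) in NRF and at ZT4.07 (SE 0.93 h) in DRF, a shift of -4.87 h with a 95% confidence interval of -6.92 to -2.82 h. That shift was -2.75 h without ZT0. For Rbm3 the fitted peak moved from ZT12.2 (SE 0.66 h) to ZT5.34 (SE 0.56 h), by -6.88 h (interval -8.62 to -5.14 h). The Rbm3 shift was -5.55 h without ZT0 and -7.79 h without ZT24. By these fits Rbm3 peaked 3.28 h after Cirbp in NRF and 1.27 h after it in DRF, lags that were not tested.

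At single time points, the regimens were furthest apart at ZT0, and less so at ZT24, the same clock time. At ZT0 the DRF mice were above the NRF mice for both transcripts with no overlap, by 1.72 times for Cirbp (log2 difference 0.78, SE 0.11, limma adjusted p = 4.96e-06) and 1.86 times for Rbm3 (0.89, SE 0.14, adjusted p = 5.85e-05). There, 2.40% of genes were called higher in DRF and 7.33% had all 4 DRF mice above all 4 NRF mice. The direction turned by lights off. At ZT12 all DRF mice were below all NRF mice for both, which held for 2.86% of genes. The log2 difference was -0.51 for Rbm3 (SE 0.14, adjusted p = 0.0489, 0.525% of genes called lower) and -0.35 for Cirbp (SE 0.11, adjusted p = 0.0742). The Rbm3 value at ZT12 sat at the threshold, and leaving out any 1 replicate ended the call, with adjusted p from 0.0688 to 0.695.

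The transcripts parted at ZT16. Rbm3 was 1.71 times higher in NRF than in DRF, with a log2 difference of -0.78 (SE 0.14, limma adjusted p = 8.67e-04) and no overlap, where 13.4% of genes were called lower in DRF and 3.14% had all DRF mice below. Without the DRF libraries 3 and 4 the difference was -0.55 (adjusted p = 0.157), and the share of genes called there fell to 0.0875% lower and 0.0999% higher in DRF. With library trends removed it was -0.51 (adjusted p = 0.0120), without replicate 4 of every group it was -0.625 (0.0812), and the adjusted p was 0.202 with only those 8 mice in the fit. Cirbp did not differ detectably there, at -0.08 (95% confidence interval -0.29 to 0.13). At ZT20 and ZT24 all DRF mice were above all NRF mice for Cirbp (3.88% and 3.27% of genes), with differences of 0.37 (limma adjusted p = 0.0645) and 0.40 (0.0723) that did not pass, while 0.568% and 0.2% of genes were called higher. Rbm3 overlapped at ZT20 and was higher in all DRF mice at ZT24, with differences of -0.26 and 0.30 (adjusted p = 0.418 and 0.558).

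At ZT4 the difference was -0.10 for Cirbp and 0.41 for Rbm3 (limma adjusted p = 0.706 and 0.0876), and at ZT8 it was -0.19 and 0.21 (0.424 and 0.499). Neither passed at those times, when 3.89% and 0.137% of genes did. Averaged over the 7 times, Cirbp was 1.09 times higher in DRF (log2 difference 0.12, SE 0.04, adjusted p = 0.0420), where 5.62% of genes were higher. Without replicate 1 that difference was 0.04 (adjusted p = 0.549), without replicate 3 it was 0.13 (0.170), without replicate 4 it was 0.15 (0.0655), and without the DRF ZT16 libraries 3 and 4 it was 0.11 (0.0802). That mean counts the clock time of lights on in 2 of its 7 groups, ZT0 and ZT24. The level of the fitted 24-h cosine differed by 0.06 (interval -0.05 to 0.16), and by 0.011 without ZT0. The mean level of Rbm3 differed by 0.04, with an interval of -0.07 to 0.14.

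**Figure D2:**
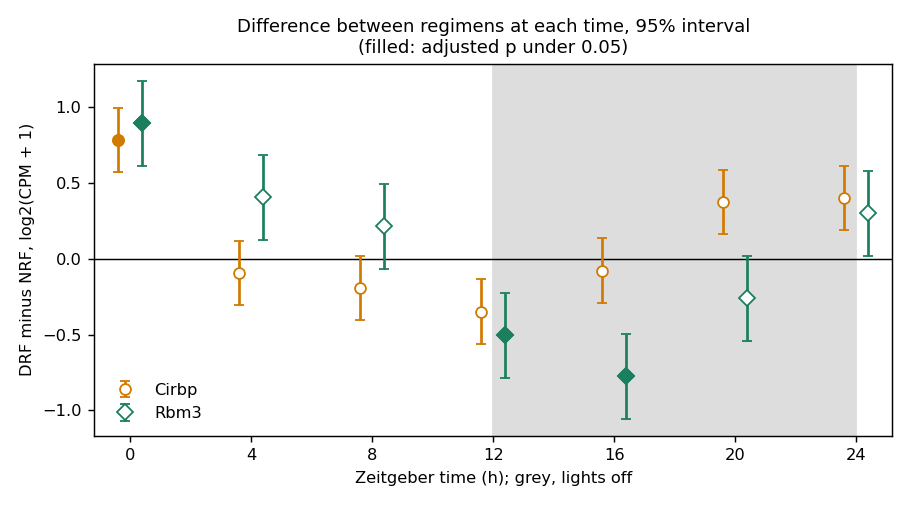
Difference DRF minus NRF in log2(CPM + 1) at each zeitgeber time for Cirbp (circles) and Rbm3 (diamonds), with 95% confidence intervals from limma, grey for lights off and filled symbols for an adjusted p under 0.05. Both are above 0 at ZT0 (0.78 and 0.89) and below it at ZT12 (-0.35 and -0.51), and at ZT16 Rbm3 is at -0.78 while Cirbp is at -0.08.

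Light and dark phases were compared as ZT4 and ZT8 against ZT16 and ZT20, with 8 mice each. NRF separated the transcripts. Cirbp was 1.52 times higher in the light (log2 difference 0.60, SE 0.07, limma adjusted p = 5.92e-08), and its 8 light mice were all above the 8 dark mice, a pattern shared by 1.83% of genes, with 13.6% of genes called higher. Rbm3 had a difference of -0.04 (SE 0.10, 95% confidence interval -0.24 to 0.15), a value that turned to 0.0022 without replicate 1 and to 0.03 with library trends removed. Its highest and lowest means in NRF, at ZT12 and ZT24, are times that this contrast leaves out. A profile with a fitted peak at ZT12.2 gives a small value here whatever its amplitude.

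DRF put both transcripts higher in the light. Rbm3 was 1.72 times higher (log2 difference 0.78, SE 0.10, limma adjusted p = 2.95e-07) and its light mice were all above its dark mice, as in 0.0812% of genes, where 1.28% were called higher. Without the DRF ZT16 libraries 3 and 4 the difference was 0.67 (adjusted p = 3.64e-05). Cirbp was 1.24 times higher (0.31, SE 0.07, adjusted p = 0.00863), with overlap between the 65.5 to 90.5 CPM of the light mice and the 53.4 to 75.2 CPM of the dark mice. Without replicate 2 this was 0.24 (adjusted p = 0.0781) and without replicate 3 it was 0.34 (0.0856).

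The light-dark difference itself changed with the regimen for Rbm3, by -0.83 log2 units in NRF relative to DRF (SE 0.14, limma adjusted p = 1.70e-04, 10.4% of genes called) and by -0.72 (adjusted p = 0.00222) without the DRF ZT16 libraries 3 and 4. This contrast does not tell a change of peak time from a change of amplitude. The fitted amplitude of Rbm3 was 0.44 in NRF and 0.46 in DRF. For Cirbp the change was 0.29 in the other direction (SE 0.11, adjusted p = 0.0647), which passed without replicate 1 (0.34, 0.0341) and was 0.25 (0.219) without those libraries. Taken over both regimens, light exceeded dark by 0.46 for Cirbp (adjusted p = 9.28e-09) and by 0.37 for Rbm3 (1.27e-04), with 9.03% of genes called higher.

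ZT0 and ZT24 are the same clock time in different mice, and in DRF they were not alike. All 4 mice of ZT0 were above all 4 of ZT24 for both transcripts, as in 4.57% of genes. Cirbp was 1.43 times higher at ZT0 (ZT24 minus ZT0 -0.51, SE 0.11, limma adjusted p = 0.0204) and Rbm3 1.76 times (-0.82, SE 0.14, adjusted p = 0.00393), where 0.212% of genes were called lower at ZT24. The call was lost without replicate 1, 3 or 4, with adjusted p of 0.0525, 0.248 and 0.244 for Cirbp and 0.0525, 0.112 and 0.0739 for Rbm3, while the differences stayed between -0.55 and -0.46 for Cirbp and between -0.85 and -0.75 for Rbm3. In NRF the differences were -0.13 and -0.22 (adjusted p = 0.531 and 0.398, 2.13% of genes called), and ranges overlapped. The order in which animals were taken was not tested.

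Within a mouse, the balance of the transcripts shifted between light and dark, in opposite directions in the regimens. Only ZT4, ZT8, ZT16 and ZT20 enter here, so a change of peak time and a change of amplitude cannot be told apart. CPM is not divided by exon length, so the sign of the difference does not show which transcript was the more abundant. Cirbp minus Rbm3, in log2(CPM + 1), was 0.40 ± 0.19 in the light mice of NRF and -0.25 ± 0.16 in the dark mice (SD, n = 8 mice each). In DRF it was -0.06 ± 0.09 in the light and 0.41 ± 0.25 in the dark. Light and dark mice did not overlap in either regimen, and the shift was 0.65 in NRF and -0.47 in DRF, each with p = 0.000155 by a two-sided exact permutation test, the smallest that 8 against 8 mice allow. The shifts differed by 1.12 between the regimens (p = 1e-05 in a permutation test, the lowest value possible with 100000 draws). That last test was chosen after the values were seen.

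At ZT16 in DRF the difference within the mouse was 0.63 and 0.86 in the libraries with the strong GC trend and at most 0.14 in the other two. The longest annotated transcript of Cirbp holds 53.7% GC and that of Rbm3 41.5%. Without those libraries the shift in DRF was -0.36 (exact permutation p = 0.000666), and the DRF ranges of light and dark still did not overlap. At ZT20, where no library stood apart, the DRF mice were at 0.29 to 0.51 and the NRF mice at -0.40 to -0.03.

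**Figure D3:**
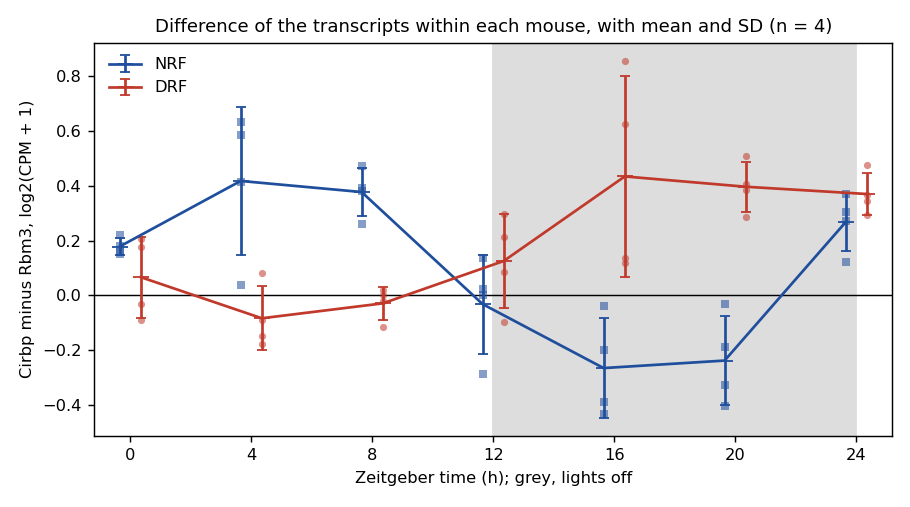
Cirbp minus Rbm3 in log2(CPM + 1) within each mouse against zeitgeber time in hours, with points for mice, lines for group means, bars for the SD of 4 mice and grey for lights off. NRF (blue squares) has means of 0.42 at ZT4 and -0.26 at ZT16, and DRF (red circles) has -0.08 at ZT4 and 0.43 at ZT16.

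Even so, mice with more Cirbp tended to have more Rbm3. Over the 56 mice Pearson's r was 0.73 and Spearman's rho 0.72 (permutation p = 1e-05 for each, again the lowest possible, adjusted over 4 relations to 1e-05 and 2e-05). Within regimens r was 0.70 in NRF (rho 0.67) and 0.81 in DRF (rho 0.86), over 28 mice each. Deviations from the 14 group means, which hold no effect of time or regimen, had r of 0.58 and rho of 0.54. All of these passed (adjusted permutation p at most 1.60e-04), with values permuted freely over the mice and not within groups. A daily course shared by both transcripts therefore enters all but the deviations. Deviations within one group depend on each other, so their p-value is approximate. Leaving out 1 replicate gave the deviations r of 0.47 to 0.73, and rho was lowest without replicate 1 (0.37, unadjusted permutation p = 0.0169). Without the pair of mice farthest from the median of Cirbp, r was 0.71, 0.66, 0.80 and 0.51 in the same order. The transcripts come from the same libraries, so that whatever a library does to both enters these values.

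**Figure D4:**
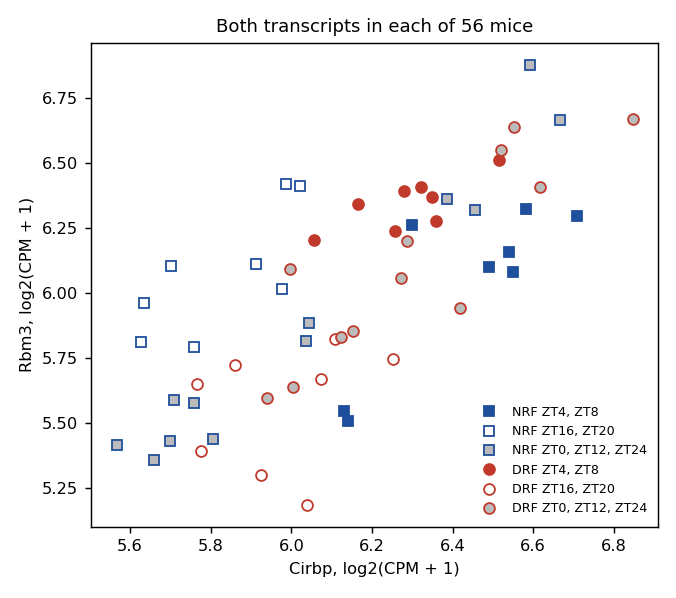
Rbm3 against Cirbp, both in log2(CPM + 1), with a point for each of 56 mice, squares for NRF and circles for DRF, filled for ZT4 and ZT8, open for ZT16 and ZT20 and grey for ZT0, ZT12 and ZT24. The transcripts rise together (r = 0.73), and in DRF the open circles lie at 5.18 to 5.82 on the Rbm3 axis and the filled circles at 6.20 to 6.51.

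Other transcripts followed the members more closely than they followed each other. Over the 14 group means, the transcripts most like Cirbp among 11320 were Fam71e1 (r = 0.966), Mri1 (0.959), an enzyme of methionine salvage, Galns (0.958), a lysosomal sulfatase, Chpf2 (0.953), an enzyme of chondroitin synthesis, and Pla2g4e (0.953), a phospholipase. All 5 were called rhythmic in NRF and 0 in DRF, beside 27.7% and 0.813% of transcripts. These counts follow in part from picking transcripts for their likeness to Cirbp in the same libraries. Those most like Rbm3 were Stx3 (r = 0.869), a syntaxin, Cpeb1 (0.867), a protein that controls polyadenylation in the cytoplasm, Chfr (0.848), a ubiquitin ligase, Cpped1 (0.845), a phosphatase, and Ercc8 (0.844), a DNA repair factor, of which Cpeb1 and Chfr were called in NRF (adjusted p = 0.00709 and 0.0311) and 0 in DRF. Cirbp and Rbm3 correlated at 0.76 over the same means, which put Rbm3 at rank 305 for Cirbp and Cirbp at rank 44 for Rbm3. These are descriptions over 14 points that share libraries, and the rhythm calls of transcripts picked in this way are no separate result.

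Heat-inducible chaperones ran opposite to Cirbp in NRF. These proteins refold or protect other proteins under heat, under the control of the factor HSF1. The gene of that factor, Hsf1, is no chaperone but is counted in the list of 18. By the combined test, all 18 of the list were rhythmic in NRF, with fitted peaks from ZT18.1 (Cryab) to ZT22.1 (Hspe1). In DRF 0 were rhythmic, where 4 had an unadjusted p under 0.05 and Hsph1 came nearest (adjusted p = 0.126). That test called 27.7% of all transcripts in NRF and 0.813% in DRF. A 24-h cosine fitted with limma gave the same counts, 18 and 0, and called 6165 of 16009 genes in NRF and 190 in DRF. In NRF 17 of 18 were lower in the light, against 13.1% of genes, with a median log2 difference of -0.34 beside 0.0012 over all genes. The largest were Hspa1b (-1.74), Hspb1 (-1.08), Hspa1a (-0.84) and Chordc1 (-0.78), against 0.60 for Cirbp and -0.04 for Rbm3. Hspa1a and Hspa1b are near-identical copies whose reads could have been split between them.

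In DRF 6 of the 18 were lower in the light (median -0.14 beside 0.0091 over all genes, 2.12% of genes lower) and none was higher. They included Hsph1 (-0.27), Stip1 (-0.24), Ahsa1 (-0.22) and Fkbp4 (-0.16), while Rbm3 was at 0.78 and Cirbp at 0.31. The light-dark difference was lower in NRF than in DRF for 9 of 18, against 5.81% of genes. At ZT0, where both members were higher in DRF, 10 of 18 were lower there (median -0.32 beside -0.0015, 2.19% of genes lower), led by Chordc1 (-0.80), Hspb1 (-0.68), Cryab (-0.56) and Hsph1 (-0.51). At ZT16, 5 of 18 were higher in DRF (6.75% of genes higher), and without the DRF libraries 3 and 4 limma called 0 (3 at an unadjusted p under 0.05). The 24-h rhythm differed between the regimens for 15 of 18, beside 11.2% of genes. Without those libraries it differed for 17, while 8 were lower in the light in DRF and 7 had a lower light-dark difference in NRF than in DRF. Over all 16009 genes these counts were 1709, 320 and 305, in the same order.

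**Figure D5:**
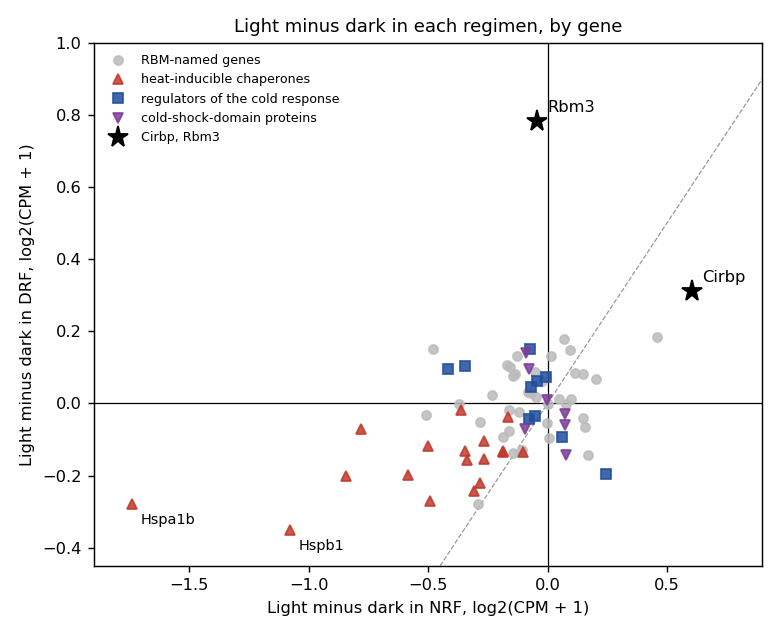
Light minus dark in log2(CPM + 1) in NRF (horizontal) and DRF (vertical), with a symbol for each gene of 4 lists, stars for the members and a dashed line where both are equal. Cirbp lies at 0.60 and 0.31 and Rbm3 at -0.04 and 0.78, while the chaperone list (triangles, Hsf1 included) reaches -1.74 in NRF for Hspa1b.

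Genes known to act in the response to cold were counted next. Of 10 regulators in the list, the combined test called 4 rhythmic in NRF (Hnrnph1, Clk1, Srsf5 and Creb1), beside 27.7% of transcripts. There 5 had an unadjusted p under 0.05, and the limma cosine called 3, beside 6165 of 16009 genes. In DRF 0 of the 10 were in any of these counts, where the combined test called 0.813% of transcripts and the cosine 190 genes. In NRF 1 was higher in the light, Srsf5 (0.25), a splicing factor, and 2 were lower, Creb1 (-0.42), a transcription factor, and Clk1 (-0.35), a kinase of splicing factors, beside 13.6% of genes higher and 13.1% lower. Srsf5 had the opposite sign in DRF (-0.20, limma adjusted p = 0.0090), beside 2.12% of genes lower there. Its light-dark difference was 0.44 larger in NRF (adjusted p = 3.1e-05), and those of Creb1 and Clk1 were lower by 0.51 and 0.45 (adjusted p = 0.0104 and 0.0264), beside 10.4% of genes called. Without the DRF ZT16 libraries 3 and 4 the value of Srsf5 was 0.43 (adjusted p = 0.000229), and those of Creb1 and Clk1 were -0.27 and -0.28 and did not pass (0.0640 and 0.169). Trpv4 and Trpm8, channels that respond to temperature, and Sp1, which binds GC boxes, passed none of these tests.

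Among 4 reported mRNA targets, the combined test called Clock rhythmic in NRF, beside 27.7% of transcripts. There 2 had an unadjusted p under 0.05, and the limma cosine called 2, beside 6165 of 16009 genes. In DRF 0 of the 4 were in any of these counts, where the combined test called 0.813% of transcripts and the cosine 190 genes. Clock was lower in the light in NRF by 0.26 (limma adjusted p = 0.0085) and Txn1, a thioredoxin, was higher by 0.14 (0.017), beside 13.1% of genes lower and 13.6% higher. In DRF Rtn3, a reticulon whose translation RBM3 is known to raise in cooled brain, was higher in the light by 0.12 (0.0256), beside 1.28% of genes. Its difference was 0.04 (0.381) without the DRF ZT16 libraries 3 and 4. Rpa2, a subunit of a protein that binds single-stranded DNA, was at 0.01 in NRF and -0.05 in DRF and passed neither.

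Families of related proteins were tested in the same way. Of 8 genes for cold-shock-domain proteins, which bind RNA through another fold, 7 were tested. The combined test called 1 rhythmic in NRF (Carhsp1), beside 27.7% of transcripts, and the limma cosine 2, beside 6165 of 16009 genes. In DRF 0 were called by either test (0.813% of transcripts and 190 genes) or had an unadjusted p under 0.05. For light against dark, limma called 0 in either regimen, beside 4276 of 16009 genes in NRF and 545 in DRF. In each regimen 1 had an unadjusted p under 0.05, beside 6142 genes in NRF and 2828 in DRF. Of 38 other genes named RBM, the combined test called 19 rhythmic in NRF and 1, Rbm28, in DRF, beside 27.7% and 0.813% of transcripts. The limma cosine called 25 and 1 of them, beside 6165 and 190 of 16009 genes. In NRF 6 were higher and 13 lower in the light, beside 13.6% and 13.1% of genes, with Rbm12b1 (-0.51), Rbm41 (-0.48), Rbm11 (0.46) and Rbm12b2 (-0.37) furthest from 0, of which Rbm12b1 and Rbm12b2 are close copies that may share reads. In DRF 1 was higher, Rbmx (0.18), and 3 lower, Rbm28 (-0.28), Rbm45 (-0.14) and Rbm10 (-0.14), beside 1.28% of genes higher and 2.12% lower. Of these, Rbm28 and Rbm45 passed without the DRF ZT16 libraries 3 and 4, where 213 of 16009 genes were called higher and 320 lower. No member of this list reached the 0.78 of Rbm3 in DRF or the 0.60 of Cirbp in NRF.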

How the data were processed

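RNA-seq of 56 mice (14 groups of 4) was used. Per the labels, polyA RNA was sequenced without strand and processed with HISAT2, Bowtie2 and RSEM on GRCm38.p6. The authors deposited 1 value per gene and mouse, a score named TPM, which follows log2(CPM + 1) of normalized reads divided by exon length and rescaled within the mouse. Undoing these steps gave whole reads (within 0.05) for both members in all 56 mice. Genes with a deposited value of at least 1 in 80% of mice were kept: 16245 for rhythm, 16009 with a length for limma.

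Differences between groups were tested with limma 3.58.1 (R 4.3.3, trend) on log2(CPM + 1) with all 14 groups in the fit and Benjamini-Hochberg adjustment over 16009 genes, threshold 0.05. Rhythm was tested on the deposited values by JTK_CYCLE and Lomb-Scargle (own code, tested on simulated data), combined by Fisher's method. Peak times came from a 24-h cosine with delta-method errors. p-values measure the spread between mice, which the study calls biological replicates. Members and gene lists were chosen with earlier results of these data known, so list counts are descriptions. Named besides the members were the 5 transcripts most like each, and from each list at most 4 past the threshold with the largest effects, plus a few named after their values were seen. Alternatives were each replicate or time left out, other scales, filters, library corrections and fits. The exact tests of the pair used scipy.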

Additional observations from a re-analysis of the deposited data

Results flagged for a closer look

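Effects that differed between the regimens by a test of the difference itself are the following. The 24-h rhythm of Cirbp differed between DRF and NRF with a limma adjusted p of 2.81e-05, and that of Rbm3 with 1.08e-05. The light-dark difference of Rbm3 depended on the regimen with an adjusted p of 0.00017 (0.78 log2 units in DRF and -0.04 in NRF). That contrast leaves out ZT12, where Rbm3 was highest in NRF. The within-mouse balance of Cirbp to Rbm3 shifted from dark to light by 1.12 log2 units more in NRF than in DRF, in a test chosen after the values were seen. Among the 14 groups of 4 mice, for each of the 2 transcripts, none held a mouse separated from the others by more than Dixon's 95% critical value, where chance alone marks about 1 group in 20.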

How the results depend on the processing

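Of 542 recomputed values, 496 kept their direction and their side of the threshold, 34 lost the call, 9 gained one and 3 reversed. The cause was not tested, apart from the smaller number of mice when some were left out. Leaving out 1 replicate of each group gave mean level differences of 0.044 to 0.16 for Cirbp and -0.052 to 0.088 for Rbm3, differences of -0.63 to -0.33 at ZT12 and -0.88 to -0.625 at ZT16 for Rbm3 and of 0.29 to 0.47 at ZT20 for Cirbp. It gave light-dark differences of -0.082 to 0.0022 for Rbm3 in NRF and 0.24 to 0.39 for Cirbp in DRF, an interaction of 0.24 to 0.34 for Cirbp, ZT24 minus ZT0 in DRF of -0.55 to -0.46 for Cirbp and -0.85 to -0.75 for Rbm3, and an adjusted p for the Rbm3 rhythm in DRF of 0.0713 to 0.141.

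With library trends removed, Rbm3 at ZT4 (0.44), Cirbp at ZT12 (-0.36) and at ZT20 (0.39) passed, Rbm3 at ZT12 (-0.43) did not, and the light-dark difference of Rbm3 in NRF was 0.027. Without DRF ZT16 libraries 3 and 4, chosen after the data were seen, Cirbp passed at ZT12 (-0.35) and ZT20 (0.37), and the calls for the Cirbp mean level (0.11) and Rbm3 at ZT16 (-0.55) were lost. On log2 of the deposited value plus 1, a compressed scale, Cirbp at ZT20 (0.091) passed and Rbm3 at ZT12 (-0.11) did not. Rbm3 at ZT12 (-0.51) also failed without the filter and with only the compared groups in the fit, as did Rbm3 at ZT16 (-0.78) and ZT24 minus ZT0 for Cirbp in DRF (-0.51) in the latter. Lomb-Scargle alone gave adjusted p of 0.0560 and 0.0618 for Cirbp and Rbm3 in NRF and 1 for Rbm3 in DRF. The adjusted p in DRF was 0.0111 for Cirbp without ZT4 and, for Rbm3, 0.0700 without ZT16 and 0.0556 without ZT20.

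Replicate numbers are shared between groups, but same-numbered mice did not deviate together (median correlation 0.018 over 364 pairs of mice, 130 above 0.1; 18 of 56 mice correlated best with their own number). With the replicate number as a block, Rbm3 at ZT12 had the same difference (-0.51) and an adjusted p of 0.0505, and no other call changed.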
